A study of Mus musculus with 18 samples.

Results

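The 10 genes described here take part in nucleic acid sensing, measured in mouse CD8+ T cells: the receptors Ddx58, Ifih1, Dhx58, Zbp1, Ifi204 and Mb21d1, and the adaptors and signalling proteins Tmem173, Mavs, Tbk1 and Irf3. They were chosen by name, with earlier results of these data known, as 10 of the 24537 genes in the count table. All 10 were among the 11651 genes that passed the filter on low counts. Naive CD8+ T cells had received CRISPR ribonucleoprotein with a scrambled guide (labelled WT) or a guide against Nur77, the protein of Nr4a1 (labelled KO), and were then activated through CD3 and CD28. They were cultured overnight without LCA (control) or with LCA at 10 µM (LCA10) or 50 µM (LCA50). LCA is lithocholic acid, a bile acid that gut bacteria make. The 6 groups, WT control, WT LCA10, WT LCA50, KO control, KO LCA10 and KO LCA50, held 3 RNA-seq libraries each, 18 in all. All the groups therefore share the ribonucleoprotein delivery and the activation. The sources used here do not give the strain, sex or age of the mice, the guide sequence or the control vehicle. Nothing in the labels ties a replicate to its own animal or culture. P-values thus reflect the scatter among libraries, part or all of which may be technical.

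Nucleic acid sensors are proteins that bind RNA or DNA found in the wrong place or form, as during viral infection. RNA-bound RIG-I (Ddx58) and MDA5 (Ifih1) signal through MAVS on mitochondria, and DNA-bound cGAS (Mb21d1) makes a cyclic dinucleotide that activates STING (Tmem173). Both routes reach the kinase TBK1, which phosphorylates the transcription factor IRF3, and type I interferon genes are then transcribed. Several of the sensors are themselves interferon-stimulated genes, so their transcripts rise in cells that see interferon. The comparisons below ask whether the 10 transcripts follow a pattern seen earlier in these libraries, in which many, but not all, interferon-stimulated genes are higher at 10 µM LCA than at 0 and 50 µM.

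Libraries held 4113713 to 5945518 counts and 14936 to 17518 genes with a count. The targeted gene did not separate the guides: Nr4a1 was at 5.86 to 11.6 CPM (counts scaled to a common library size) in WT control, 7.71 to 12.02 in KO control, and 5.86 to 17.97 over all 18 libraries. KO against WT averaged over doses was −0.16 ± 0.19 for Nr4a1 on the log2 scale (SE, edgeR adjusted p = 0.789). A guide's cut need not lower the transcript, so this neither checks nor replaces the labels, and WT and KO below mean the libraries so labelled. The CD8 T cell markers Cd3d, Cd3e, Cd3g, Cd247, Cd8a, Cd8b1 and Cd28 summed to 2643 to 3414 CPM, whereas Cd4 was at or under 1.28 CPM and was at 0 in every library of 2 groups. Of the olfactory, vomeronasal and trace amine receptor genes, which T cells are not known to use, 1477 did not pass the filter on low counts. These 1477 summed to 50.4 to 114.5 CPM in the libraries without LCA or at 10 µM. They summed to 122 to 224 CPM in WT LCA50 and 47.8 to 166 CPM in KO LCA50.

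The RIG-I-like RNA receptors come first. In the GRCm38 annotation Ddx58 lies on the minus strand of chromosome 4, 40203773 to 40239828, and Ifih1 on the minus strand of chromosome 2, 62595798 to 62646255. Dhx58, which encodes LGP2, a relative without the signalling domains that modulates the other receptors, lies on the minus strand of chromosome 11, 100694884 to 100704271. RefSeq promoter windows of 300 bases ran from 250 bases before to 50 bases after the start site. They were searched for 6 of the 10 members (Ddx58, Ifih1, Mb21d1, Mavs, Tbk1 and Irf3). No window of Dhx58, Zbp1, Ifi204 or Tmem173 entered the search, so the counts of matches leave these members out. The letters GAAA, any 2 bases and GAAA again, a short form of the interferon-stimulated response element, were searched on both strands and occurred in 2 of the 6, Ddx58 and Ifih1, and in 1131 of 32851 such windows (3.44%). The 30 bases around each match are shown with the match in capitals, in the direction of the gene, from GRCm38.p6. Both stretches overlap annotated exon sequence at the start of the gene. Both genes rose at 10 µM, as did Dhx58, Zbp1 and Ifi204, which were not searched. A link between match and rise was not tested.

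Ddx58, chr4:40239804-40239833: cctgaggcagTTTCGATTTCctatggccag

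Ifih1, chr2:62646206-62646235: gagaagagaatcGAAACAGAAAccgatctg

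In Ddx58 the match is on the strand opposite to the gene, and in Ifih1 on the strand of the gene. The letters TTC, any 3 bases and GAA, a short form of the interferon gamma activated site, were in 8.3% of windows and in 0 of the 6. A match of letters is a description of the window and does not show that a factor binds there.

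Ddx58 was at 75.0, 89.6 and 82.4 CPM in the 3 WT control libraries, 84.9, 133 and 108 in WT LCA10, and 67.2, 83.7 and 71.7 in WT LCA50. Under the Nr4a1 guide it was at 70.1, 76.0 and 77.5 CPM without LCA, 115, 119.6 and 92.1 at 10 µM, and 77.6, 74.9 and 68.6 at 50 µM. The KO LCA10 libraries all lay above the KO controls, while the lowest WT LCA10 library lay under the highest WT control. Averaged over the guides, Ddx58 rose 1.39-fold at 10 µM (log2 fold change 0.47 ± 0.09 SE, adjusted p = 0.00184). At 50 µM its log2 fold change was −0.08 ± 0.09 (adjusted p = 0.585).

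Ifih1 was lower in abundance and moved in both directions. It was at 15.7, 19.1 and 16.6 CPM in WT control, 30.5, 29.4 and 24.9 in WT LCA10, and 12.4, 13.0 and 9.22 in WT LCA50, with no overlap between the 3 groups. Under the Nr4a1 guide it was at 19.5, 22.96 and 27.8 CPM without LCA, 31.4, 36.2 and 26.4 at 10 µM, and 15.7, 17.01 and 18.4 at 50 µM, where the control and LCA10 ranges overlapped. Averaged over the guides, Ifih1 rose 1.48-fold at 10 µM (log2 fold change 0.57 ± 0.12, adjusted p = 0.00823) and fell by 0.51 ± 0.13 on the log2 scale at 50 µM (adjusted p = 0.00655). Without the LCA50 library with the most receptor background in each genotype, WT LCA50 replicate 3 and KO LCA50 replicate 1, the change of Ifih1 at 50 µM was −0.42 and missed the threshold (adjusted p = 0.0536).

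Dhx58 behaved similarly in direction. It was at 49.7, 46.8 and 39.8 CPM in WT control, 52.7, 79.96 and 62.4 in WT LCA10, and 40.6, 36.6 and 29.9 in WT LCA50. In the libraries labelled KO it was at 41.6, 54.4 and 39.6 CPM without LCA, 68.5, 79.4 and 50.2 at 10 µM, and 23.5, 34.4 and 34.3 at 50 µM. WT LCA10 lay wholly above WT control and KO LCA50 wholly below KO control, and the other pairs with control overlapped. Averaged over the guides, Dhx58 rose 1.44-fold at 10 µM (log2 fold change 0.53 ± 0.12, adjusted p = 0.0163) and fell by 0.44 ± 0.13 on the log2 scale at 50 µM (adjusted p = 0.016). The call at 10 µM was lost when any 1 of 5 libraries was left out (WT control replicate 3, KO control replicates 1 and 3, WT LCA10 replicate 2, KO LCA10 replicate 2), with adjusted p from 0.0566 to 0.0834. The call at 50 µM was lost without KO control replicate 2 (adjusted p = 0.0579), without WT LCA50 replicate 3 (adjusted p = 0.0509), and at −0.31 without the 2 LCA50 libraries of most receptor background (adjusted p = 0.104). Dhx58 shares 141 exon bases with the antisense gene Dhx58os, and the sources used here do not say whether counting used strand, so reads there cannot be told apart.

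**Figure D1:**
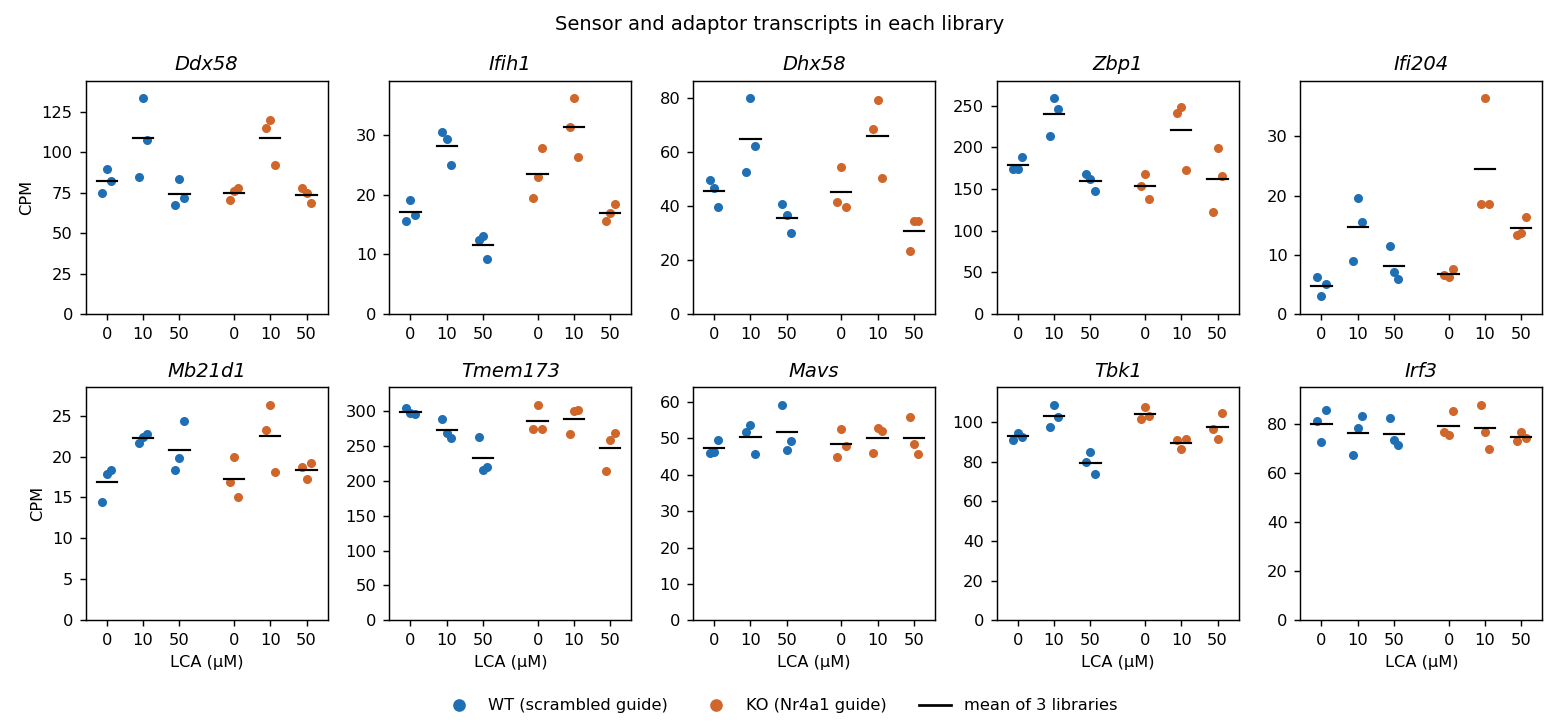
CPM of each of the 10 genes (vertical axes, starting at 0) in each of the 18 libraries, by LCA dose in µM (horizontal axes); blue points are WT and orange points KO libraries, and bars are means of 3. Points for Ddx58, Ifih1, Dhx58, Zbp1, Ifi204 and Mb21d1 stand highest at 10 µM under both guides by their means, although the change of Mb21d1 did not pass the test. Those of Mavs and Irf3 overlap between 0 and 10 µM.

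Zbp1 senses left-handed double-stranded nucleic acid and can start necroptosis through the kinase RIPK3. It lies on the minus strand of chromosome 2, 173206612 to 173218923, and was the most abundant receptor of the 6 per kilobase of exon. Zbp1 was at 174.5, 174.5 and 188 CPM in WT control, 214, 259 and 247 in WT LCA10, and 168, 162 and 148 in WT LCA50. Under the Nr4a1 guide it was at 154, 169 and 138 CPM without LCA, 241, 248 and 172 at 10 µM, and 123, 199 and 165 at 50 µM. LCA10 lay above control without overlap under both guides. Averaged over the guides, Zbp1 rose 1.39-fold at 10 µM (log2 fold change 0.47 ± 0.10, adjusted p = 0.02), and at 50 µM its log2 fold change was −0.04 ± 0.10 (adjusted p = 0.837). The call at 10 µM was lost without any 1 of 7 libraries (WT control replicates 1 and 2, KO control replicates 1 and 3, WT LCA10 replicate 2, KO LCA10 replicates 1 and 2), with values of 0.42 to 0.47 and adjusted p from 0.0566 to 0.0775.

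The DNA sensors were Ifi204 and Mb21d1. Ifi204, a PYHIN family member that binds DNA, lies on the minus strand of chromosome 1, 173747293 to 173766943. It had the lowest counts of the 10, 15 to 173 a library, and its PYHIN relatives are similar in sequence, so its level could depend on how multi-mapping reads were assigned, a step the sources used here do not describe. Ifi204 was at 6.18, 2.99 and 5.05 CPM in WT control, 8.87, 19.5 and 15.6 in WT LCA10, and 11.6, 7.01 and 5.84 in WT LCA50. In the libraries labelled KO it was at 6.50, 6.21 and 7.58 CPM without LCA, 18.5, 36.4 and 18.5 at 10 µM, and 13.3, 13.6 and 16.4 at 50 µM. Every LCA10 library exceeded every control library of its guide, and in KO every LCA50 library did too. Averaged over the guides, Ifi204 rose 3.33-fold at 10 µM (log2 fold change 1.74 ± 0.22, adjusted p = 6.89e-06). At 50 µM Ifi204 was also higher than control (log2 fold change 0.94 ± 0.23, adjusted p = 0.0044).

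Mb21d1, named Cgas in the reference, lies on the minus strand of chromosome 9, 78430526 to 78443237, and shares 201 exon bases with the pseudogene Gm8093 on the other strand. It was at 14.4, 17.9 and 18.4 CPM in WT control, 21.6, 22.4 and 22.8 in WT LCA10, and 18.4, 19.8 and 24.3 in WT LCA50. Under the Nr4a1 guide it was at 16.9, 19.9 and 15.0 CPM without LCA, 23.2, 26.3 and 18.1 at 10 µM, and 18.8, 17.2 and 19.2 at 50 µM. WT LCA10 lay above WT control, and KO LCA10 overlapped KO control. The mean change of Mb21d1 at 10 µM, 0.39 ± 0.13 on the log2 scale, did not pass the test (adjusted p = 0.135).

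The adaptors, kinase and transcription factor did not pass the test at 10 µM. Tmem173 (STING) was the most abundant of the 10 genes per kilobase, at 109 CPM per kb in WT control. Its level was 304, 296 and 295 CPM in WT control, 288, 268 and 261 in WT LCA10, and 263, 215 and 219 in WT LCA50. In the libraries labelled KO Tmem173 was at 274, 309 and 274 CPM without LCA, 266, 299 and 301 at 10 µM, and 213, 258 and 268 at 50 µM. LCA50 lay below control without overlap under both guides, and so did WT LCA10 but not KO LCA10. Averaged over the guides, Tmem173 fell by 0.28 ± 0.06 on the log2 scale at 50 µM (adjusted p = 0.000789), and at 10 µM its change was −0.06 with a 95% interval of −0.18 to 0.06.

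Mavs, on the plus strand of chromosome 2, 131234063 to 131248025, carries the signal of RIG-I and MDA5. It ranged from 44.9 to 59.3 CPM over the 18 libraries, and its mean change at 10 µM was 0.07 (95% interval −0.10 to 0.25). Irf3, on the plus strand of chromosome 7, 44997648 to 45002848, ranged from 67.5 to 87.9 CPM, with a mean change at 10 µM of −0.04 (95% interval −0.20 to 0.11). The control and LCA10 ranges of both genes overlapped under both guides. Irf3 shares 88 exon bases with Bcl2l12 on the other strand.

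Tbk1, the kinase shared by both routes, lies on the minus strand of chromosome 10, 121546455 to 121586787. It was at 91.1, 94.6 and 92.5 CPM in WT control, 97.4, 109 and 102 in WT LCA10, and 79.8, 84.9 and 73.5 in WT LCA50. In the libraries labelled KO it was at 101, 108 and 103 CPM without LCA, 90.8, 86.1 and 91.4 at 10 µM, and 96.6, 91.5 and 105 at 50 µM. WT LCA10 thus lay above WT control and KO LCA10 below KO control, both without overlap. The log2 fold changes at 10 µM were 0.15 ± 0.09 in WT (adjusted p = 0.746) and −0.22 ± 0.09 in KO (adjusted p = 0.503), and neither passed the test. The difference between them, −0.36 ± 0.13, did not pass either (adjusted p = 1, unadjusted p = 0.00694).

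**Figure D2:**
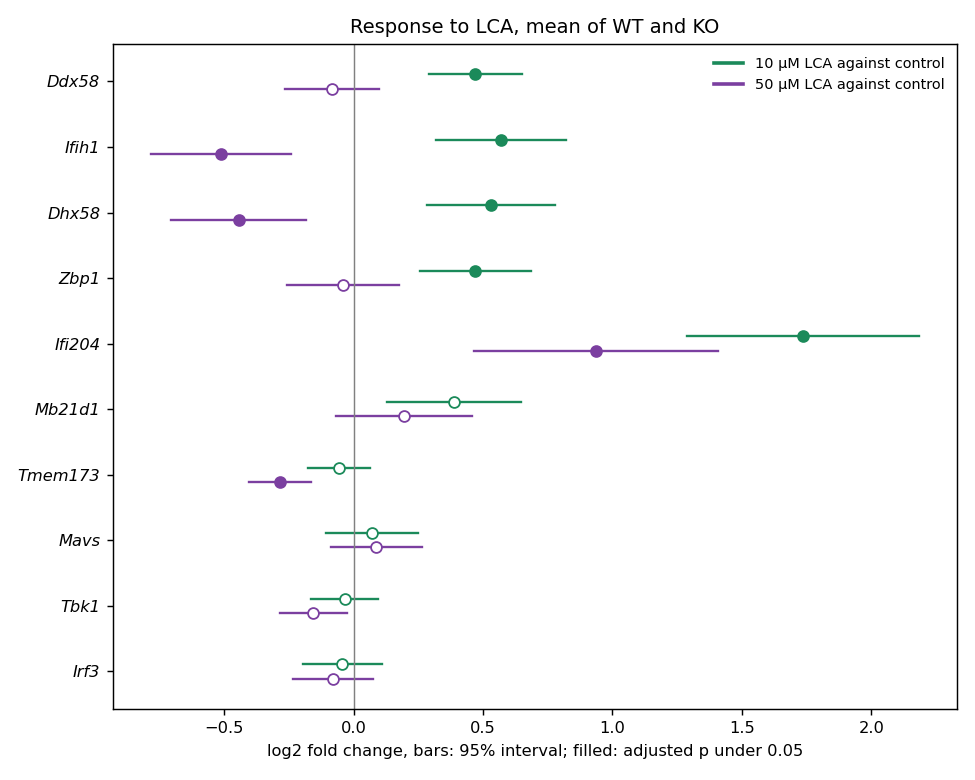
Log2 fold change of each of the 10 genes (horizontal axis) at 10 µM (green) and 50 µM LCA (purple) against control, averaged over WT and KO, with bars for the 95% interval and filled points for adjusted p under 0.05. The 5 receptors with filled green points lie between 0.47 and 1.74, and at 50 µM Ifih1, Dhx58 and Tmem173 lie below 0 while Ifi204 lies above.

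Counted together, 5 of the 10 genes were called higher at 10 µM (edgeR, adjusted p under 0.05), all of them among the 6 receptors, against 1.01% of all tested genes. None was called lower, against 0.807% of all genes. In edgeR 6 members had an unadjusted p under 0.05, all higher, against 1375 of 11651 genes in either direction. DESeq2 also called 5. The median log2 fold change of the 10 was 0.43 (0.50 in the 6 receptors and −0.04 in the other 4), and that of all tested genes was 0.00. Among 35 tested interferon-stimulated genes other than the members, 20 were called higher and 0 lower, with a median of 0.41. This list had been seen to peak at 10 µM in these libraries earlier, so its direction is no independent evidence. The members were also chosen with earlier results of these data known. Their counts, here and for the middle dose below, are therefore no independent evidence either. Among its most abundant genes, Stat2, a transcription factor of interferon signalling, was called at 0.35 ± 0.07 (adjusted p = 0.00184), while Parp9 was at 0.10 ± 0.05 (adjusted p = 0.512), Dtx3l at 0.08 ± 0.06 (adjusted p = 0.672), Ifi27l2a at 0.01 ± 0.20 (adjusted p = 0.988) and Epsti1 at −0.18 ± 0.10 (adjusted p = 0.501).

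Within each guide, with 3 libraries against 3, fewer members were called. In WT, 1 of 10 was called higher against 0.215% of all genes: Ifi204 at 1.63 ± 0.32 (adjusted p = 0.0109), while Ifih1 at 0.72 ± 0.18 narrowly missed the threshold (adjusted p = 0.0573). In KO, 2 of 10 were called higher against 0.206% of all genes: Ifi204 at 1.85 ± 0.30 (adjusted p = 0.0012) and Ddx58 at 0.54 ± 0.12 (adjusted p = 0.042). The interferon-stimulated list had 5 and 6 genes called higher. In WT 6 of 10 members had LCA10 libraries wholly above control, against 6.78% of all genes, and in KO 3 of 10 did, against 7.77%. These calls depended on single libraries: Ifi204 in WT was lost at 1.38 (adjusted p = 0.13) when WT control replicate 2 was left out, at 1.67 (adjusted p = 0.0671) when replicate 3 was, and at 1.36 (adjusted p = 0.184) when WT LCA10 replicate 2 was. In KO it was lost without KO LCA10 replicate 2 (1.44, adjusted p = 0.0525). Ddx58 in KO was lost without any 1 of 9 libraries (WT control replicates 1 and 3, every KO control, WT LCA10 replicate 3, KO LCA10 replicates 1 and 2, WT LCA50 replicate 3), with adjusted p from 0.0528 to 0.362. DESeq2 also called Ifih1 in WT (adjusted p = 0.0291) and Zbp1 in KO (adjusted p = 0.0249). Calls were also gained when 1 library was left out. In WT, Ddx58 was gained without WT LCA10 replicate 1 (adjusted p = 0.0411). Ifih1 and Zbp1 were gained in WT without KO LCA50 replicate 1 (adjusted p = 0.0287 and 0.0346). That library is in neither compared group and enters only through the shared spread, filter, scaling and p-value adjustment. In KO Zbp1 was gained without KO LCA10 replicate 3 (0.67, adjusted p = 0.0143) and without KO LCA50 replicate 1 or 2 (adjusted p = 0.00647 and 0.041).

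The libraries varied together within the LCA10 groups. As the median log2 difference of the 35 interferon-stimulated genes from the mean of WT control, WT LCA10 replicates 1, 2 and 3 stood at 0.27, 0.75 and 0.49, and KO LCA10 at 0.49, 0.71 and 0.45. WT LCA50 stood at −0.14, −0.11 and −0.29, KO LCA50 at −0.48, −0.01 and −0.10, and the 6 control libraries between −0.09 and 0.10. The second replicate was thus highest in both LCA10 groups. It was also highest in the control groups (0.10 in WT and 0.08 in KO) and in both LCA50 groups, so this was not particular to 10 µM. In both LCA10 groups the second replicate held the highest Ddx58, Dhx58, Zbp1 and Ifi204 as well. The dendritic and plasmacytoid cell markers Siglech, Flt3, Itgax, Ccr9, Xcr1 and Cd209a summed to 3.83 to 4.63 CPM in WT LCA10, 2.64 to 5.35 in KO LCA10, 3.23 to 5.78 in WT control and 3.39 to 6.74 in KO control. The 8 myeloid markers summed to 121 to 152 CPM in WT LCA10 and 149 to 177 in WT control, and to 88.2 to 122.5 in KO LCA10 and 111 to 114 in KO control. Neither of these sums lay wholly above control at 10 µM under either guide, and S100a8, a neutrophil and monocyte marker, was at 0 in every KO control library. The red cell and platelet markers Hbb-bs, Hba-a1, Pf4 and Ppbp summed to 19.2 to 42.0 CPM in WT control and 2.73 to 8.10 in WT LCA10, without overlap, and to 0 to 4.55 in KO control and 2.83 to 14.5 in KO LCA10. The CD8 T cell markers also lay lower in WT LCA10, at 3062 to 3328 CPM against 3355 to 3414 in WT control, and overlapped in KO. The CD4 T, B and NK cell marker sums overlapped between control and LCA10 under both guides, except that the NK sum in KO was 1.13 to 1.52 CPM in control and 0 to 0.892 at 10 µM. The part of these markers in the changes at 10 µM was not tested. In bulk RNA, fewer cells with a transcript and less transcript in each cell cannot be told apart.

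The middle dose was then set against the mean of 0 and 50 µM, averaged over the guides. A gene can pass this contrast by a rise at 10 µM, by a fall at 50 µM or by both, so its change against control is read beside it. The 5 members called here were each also called higher at 10 µM against control, as given above. Of the 10 members, 5 were called higher, against 0.764% of all genes, and the other 5 were not called. Ifi204 stood at 1.27 ± 0.18 on the log2 scale (adjusted p = 4.02e-05), Ifih1 at 0.82 ± 0.11 (adjusted p = 7.69e-06) and Dhx58 at 0.75 ± 0.10 (adjusted p = 5.18e-05). Ddx58 stood at 0.51 ± 0.08 (adjusted p = 5.99e-05) and Zbp1 at 0.49 ± 0.09 (adjusted p = 0.00556). The calls of these 5 receptors held in each of the 24 other fits run for this contrast, with adjusted p up to 0.034. Mb21d1 at 0.29 ± 0.11 did not pass (adjusted p = 0.424), and Tmem173, Mavs, Tbk1 and Irf3 lay between −0.00 and 0.08. The interferon-stimulated list had 29 of 35 genes called higher, with a median of 0.78 against 0.00 for all genes and 0.39 for the 10 members, although 20 were called higher at 10 µM against control alone.

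**Figure D3:**
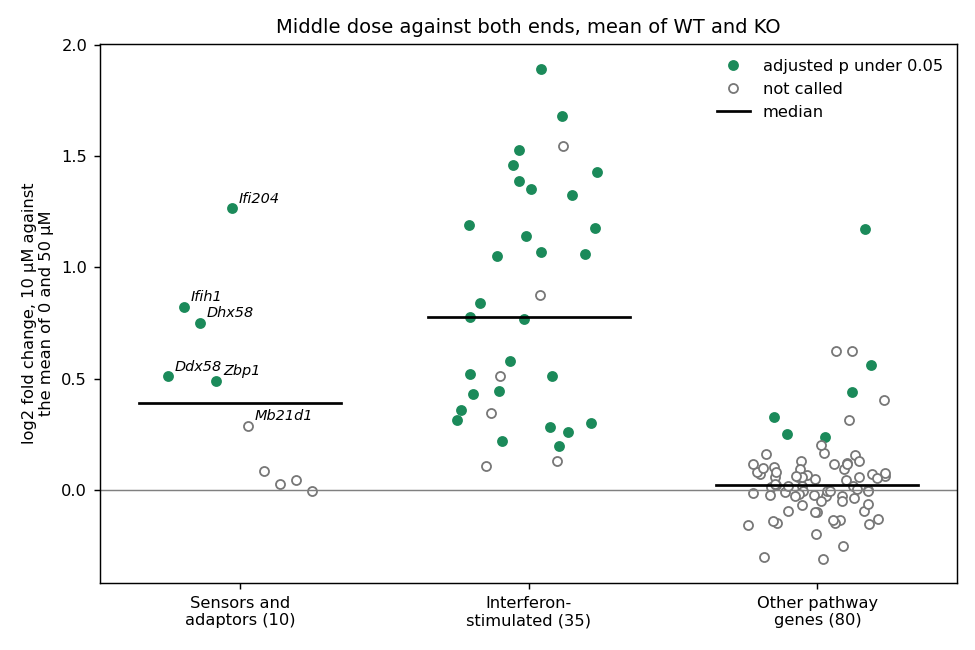
Log2 fold change of 10 µM LCA against the mean of 0 and 50 µM (vertical axis), averaged over WT and KO, for the 10 sensors and adaptors, 35 interferon-stimulated genes and 80 other pathway genes; each point is a gene, green where adjusted p was under 0.05, black lines are medians, and points are spread sideways for legibility only. Of the 6 receptors, which carry labels, Ddx58, Ifih1, Dhx58, Zbp1 and Ifi204 are green and Mb21d1 at 0.29 is open; the 4 members without labels lie between −0.00 and 0.08, and the other pathway genes centre on 0.02.

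Other genes of the pathway were mostly not called. Of 80 tested genes in 5 lists, 6 were called higher at 10 µM than the mean of 0 and 50 µM, against 0.764% of all genes. None was called lower, against 6 of 11651 genes. Among RNA sensing genes these were Trim25, a ubiquitin ligase for RIG-I, at 0.44 ± 0.07 (adjusted p = 0.000134) and Ddx60, a helicase linked to RIG-I, at 1.17 ± 0.19 (adjusted p = 0.000209), 2 of 17. Among DNA sensing genes they were Ifi203 at 0.56 ± 0.09 (adjusted p = 0.000134) and Mndal at 0.25 ± 0.06 (adjusted p = 0.0459), both PYHIN genes, 2 of 24. Among genes of nucleic acid clearance and editing they were Adar, the RNA editing enzyme, at 0.33 ± 0.05 (adjusted p = 0.000318) and Samhd1, a nucleotide hydrolase, at 0.24 ± 0.05 (adjusted p = 0.00421), 2 of 12. None of the 19 shared signalling genes and TBK1 partners passed in edgeR (3 at an unadjusted p under 0.05). Nor did any of the 8 interferon ligand and receptor genes (1 at an unadjusted p under 0.05, against 853 of all 11651 genes). Of these 6, Ifi203, Mndal and Samhd1 were not called at 10 µM against control (0.08 ± 0.10, −0.04 ± 0.07 and 0.05 ± 0.06, adjusted p of 0.84, 0.899 and 0.833), and all 3 were called lower at 50 µM. Against control alone, 3 of the 80 were called higher at 10 µM (Ddx60 at 1.31, Trim25 at 0.32, Adar at 0.29), against 1.01% of all genes. Another 3 were called lower, against 0.807% (the helicase Ddx3x at −0.22, the transcription factor Irf5 at −0.49 and the receptor chain Ifngr1 at −0.32).

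At 50 µM, averaged over the guides, 1 of the 10 members was called higher (Ifi204, above), against 7.86% of all genes, and 3 lower (Ifih1, Dhx58 and Tmem173, above), against 8.66%. Tbk1 at −0.16 ± 0.06 did not pass (adjusted p = 0.0958). The median of the 10 was −0.08. Of the interferon-stimulated list 10 of 35 were called lower and 0 higher, among them Ifi27l2a at −0.996 ± 0.206 (adjusted p = 0.00513) and Epsti1 at −0.58 ± 0.10 (adjusted p = 0.000447). Within WT only Tmem173 was called, lower by −0.36 ± 0.08 (adjusted p = 0.00514), 1 of 10 against 4.93% of all genes; without WT LCA50 replicate 2 its value was −0.31 (adjusted p = 0.0543). Within KO 4 of 10 members had an unadjusted p under 0.05 in edgeR, against 2202 of 11651 genes. There 0 of 10 were called lower, against 3.42% of all genes. Only Ifi204 was called, higher by 1.09 ± 0.31 (edgeR adjusted p = 0.0275), 1 of 10 against 2.93% of all genes. That call was lost without any 1 of 4 libraries (KO control replicates 1, 2 and 3, KO LCA50 replicate 3), with adjusted p from 0.069 to 0.11. DESeq2 called Dhx58 lower in KO as well (−0.55, adjusted p = 0.0442), as did a fit with the replicate number as a block (−0.54, adjusted p = 0.035) and a fit without KO LCA10 replicate 3 (−0.55, adjusted p = 0.0399). The receptor background given above was higher in WT LCA50 than in every other WT library, and its part in the changes at 50 µM was tested only by leaving out the 2 libraries named above. The CD8 T cell markers summed lower at 50 µM without overlap, at 2719 to 2977 CPM against 3355 to 3414 in WT control. In KO they summed to 2643 to 3117 against 3207 to 3336, although mean Cd247 there was 228.8 against 214.6. The CD4 T cell marker sum went the other way, at 20.6 to 25.6 against 12.6 to 17.9 in WT and 18.6 to 36.1 against 14.3 to 18.5 in KO. The part of these markers in the changes at 50 µM was not tested.

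Of the 80 other pathway genes 4 were called higher at 50 µM, against 7.86% of all genes, and 15 lower, against 8.66%. Of DNA sensing genes 4 of 24 were lower, including Ifi203 at −0.96 ± 0.11 (adjusted p = 4.44e-08), Mndal at −0.59 ± 0.07 (adjusted p = 5.85e-07) and Ripk3, the kinase partner of ZBP1, at −0.59 ± 0.10 (adjusted p = 5.81e-05), and Polr3d, a subunit of RNA polymerase III, was higher at 0.40 ± 0.12 (adjusted p = 0.0176). Both PYHIN genes were thus lower at the dose at which Ifi204 was higher. Of the shared signalling genes 5 of 19 were lower, among them Irf1 at −0.40 ± 0.05 (adjusted p = 1.61e-07), Unc93b1, which carries Toll-like receptors to endosomes, at −0.55 ± 0.08 (adjusted p = 5.38e-06) and Ikbke, the kinase related to TBK1, at −0.46 ± 0.10 (adjusted p = 0.00186). Of RNA sensing genes 4 of 17 were lower, among them Dhx15 at −0.17 ± 0.05 (adjusted p = 0.0188) and Trim25 at −0.24 ± 0.08 (adjusted p = 0.0337). Samhd1 was the 1 of 12 clearance genes called, at −0.38 ± 0.06 (lower).

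KO against WT was tested at each dose and for the mean of doses. At each dose 0 of 10 members were called in edgeR, against 0.627% of all genes without LCA, 0.661% at 10 µM and 1.94% at 50 µM. In that order 1, 2 and 3 members had an edgeR unadjusted p under 0.05, against 1013, 978 and 1571 of 11651 genes. DESeq2 also called 0 members at each dose. For the mean of doses, 2 of 10 were called higher in KO, against 3.36% of all genes, and 0 lower, against 1.79%. The same contrast gave 2 members an unadjusted p under 0.05 in edgeR, against 1791 of 11651 genes. Ifi204 was higher by 0.70 ± 0.18 on the log2 scale (1.62-fold, adjusted p = 0.0158), and Ifih1 by 0.39 ± 0.11 (1.31-fold, adjusted p = 0.0217). At 0, 10 and 50 µM the differences for Ifi204 were 0.52, 0.74 and 0.83 and those for Ifih1 0.46, 0.15 and 0.56, all in 1 direction. The call of Ifi204 was lost without KO LCA10 replicate 2 (0.56, adjusted p = 0.053). That of Ifih1 was lost without KO control replicate 3, WT LCA10 replicate 3, KO LCA10 replicate 2 or WT LCA50 replicate 3, with values of 0.34 to 0.36 and adjusted p from 0.0542 to 0.0721. The 8 myeloid markers summed to more in WT than in KO without overlap in control (149 to 177 against 111 to 114 CPM) and at 50 µM (125 to 142 against 95.01 to 120.8), while at 10 µM the sums overlapped (121 to 152 against 88.2 to 122.5). Single markers differed in this: Lyz2 was at 22.8 to 40.2 CPM in the WT groups and 5.85 to 13.8 in the KO groups, whereas mean Cst3 at 50 µM was 82.2 in WT and 92.9 in KO, and Adgre1 1.17 in both. The part of these markers in the differences between guides was not tested. Of the other pathway genes the PYHIN gene Ifi203 was lower in KO by −0.60 ± 0.08 (adjusted p = 5.98e-06) and Mndal by −0.26 ± 0.06 (adjusted p = 0.00639), the direction opposite to Ifi204.

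**Figure D4:**
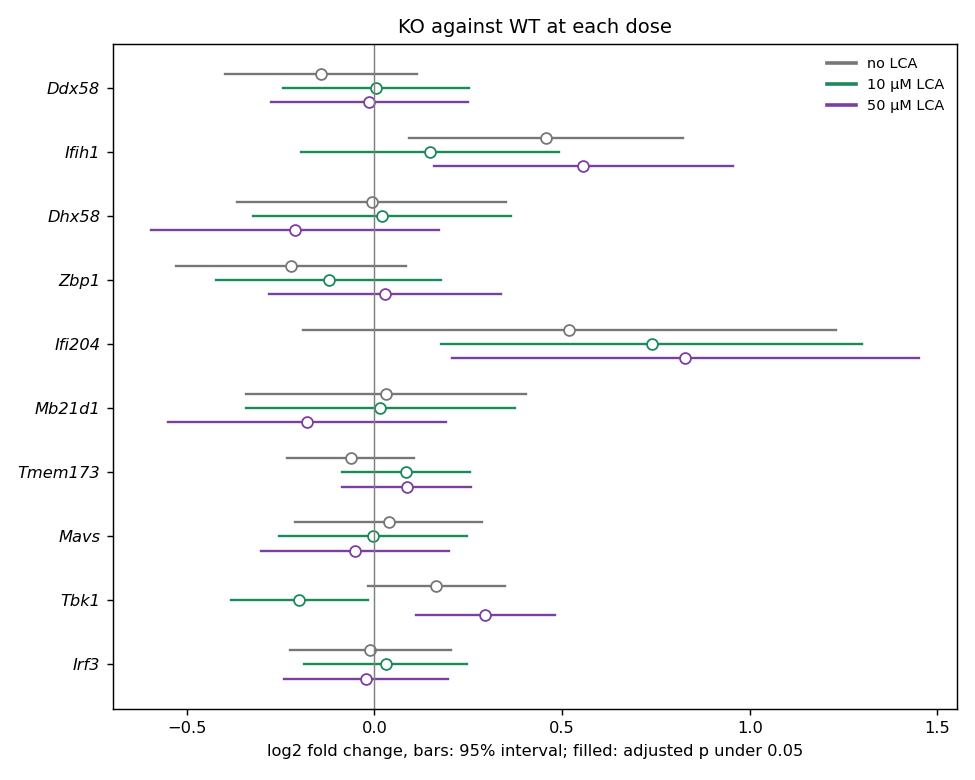
Log2 fold change of KO against WT (horizontal axis) for each of the 10 genes without LCA (grey), at 10 µM (green) and at 50 µM (purple), with bars for the 95% interval and open points because no adjusted p was under 0.05. Ifi204 and Ifih1 lie above 0 at each dose, and Tbk1 lies below 0 at 10 µM and above 0 at 0 and 50 µM.

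No difference between the guides in a member's response to LCA passed the test. For the difference between KO and WT in the response to 10 µM, 0 of 10 members were called, against 0% of all genes (edgeR, 0 of 11651 genes, with 382 at an unadjusted p under 0.05, 1 of them a member, and 0 genes in DESeq2). For 50 µM 0 of 10 were called, against 0% of all genes (729 genes at an unadjusted p under 0.05, 0 of them members, and 1 gene in DESeq2). These misses do not show that the responses were equal. The 95% interval of the difference at 10 µM was −0.21 to 0.50 for Ddx58, −0.81 to 0.19 for Ifih1, −0.47 to 0.52 for Dhx58, −0.33 to 0.53 for Zbp1 and −0.70 to 1.14 for Ifi204.

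Levels between genes were compared as CPM per kilobase of exon. In WT control the order was Tmem173 at 109, Zbp1 at 50.8, Tbk1 at 23.7, Irf3 at 23.2, Mavs at 14.1, Dhx58 at 13.9, Ddx58 at 11.7, Mb21d1 at 4.10, Ifih1 at 2.10 and Ifi204 at 1.33. The ranges of Tbk1 and Irf3, of Mavs and Dhx58, and of Dhx58 and Ddx58 overlapped, and the other neighbours did not. At 10 µM in KO Ifi204 reached 6.87 CPM per kb and the 8th place, where its range overlapped that of Mb21d1 at 5.47. Tmem173 and Zbp1 were first and second in all 6 groups.

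The genes whose log2 CPM ran most like each member over the 18 libraries were listed among 9759 genes with a mean of at least 5 CPM. The libraries share dose groups and scaling, so these correlations describe the data and carry no test. For Dhx58 they were Irf7, Cmpk2 and Trim30a (Pearson r of 0.962, 0.931 and 0.931), for Zbp1 Rtp4, Irf7 and Ifit3 (0.918, 0.913 and 0.902), and for Ddx58 Xaf1, Rtp4 and Mx1 (0.903, 0.864 and 0.858). All 9 entries for these 3 receptors were in the interferon-stimulated list. For Ifih1 they were Stat2, Gm4951 and Trim30a (0.908, 0.884 and 0.872), of which Gm4951 was outside the list. For Ifi204 they were Parp12, Pstpip1 and Cxcl10 (0.863, 0.836 and 0.801), all outside the list. The list is a selection, so a gene outside it can still be interferon-stimulated. For Mb21d1 the nearest was Cmtr1 (0.807), for Tmem173 the desaturase gene Fads2 (0.917), for Mavs Map3k8 (0.78), for Tbk1 Mrpl13 (0.851) and for Irf3 Mcl1 (0.802).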

How the data were processed

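RNA was extracted with a Qiagen kit and sequenced after ultra-low-input cDNA preparation, per the labels. The authors deposited raw counts, whole numbers per gene symbol. Per the submitters' processing notes STAR, HOMER and DESeq2 were used with GRCm38 and mm10, and the sources used here do not state the role, version or parameters of each or the strand setting. The members and gene lists were chosen with earlier results of these data known. All 18 libraries entered 1 edgeR 4.0.16 model (R 4.3.3) with a mean for each of 6 groups: filterByExpr kept 11651 of 24537 genes, libraries were scaled by TMM, and a robust quasi-likelihood F test was run for 13 contrasts. P-values were adjusted by Benjamini-Hochberg over all tested genes in a contrast, and genes under 0.05 were called. CPM use TMM-scaled totals, and log2 CPM a prior count of 2. Standard errors were recovered from F, as the size of the log2 fold change divided by its root. Groups do not overlap when every library of 1 lies above every library of the other. Named genes were the members, Nr4a1, the 6 most abundant interferon-stimulated genes, up to 3 called genes each way of each pathway list, and the 3 genes most like each member. Some genes this rule names are not reported here. Exon lengths and loci came from GENCODE and RefSeq annotations of GRCm38. Alternatives were DESeq2 1.42.0, its size factors in edgeR, no filter, a mean CPM of at least 5, the compared groups alone, a replicate block and each library left out. Leaving out the LCA50 library of most receptor background in each genotype was chosen after seeing the data. The test code was run on simulated data for WT LCA10 against WT control alone, with changes placed in genes with a mean of at least 5 CPM. The contrasts averaged over guides or doses were not simulated.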

Additional observations from a re-analysis of the deposited data

How the results depend on the processing

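No member call changed direction under any alternative. Among the 10 members, WT LCA10 calls numbered 2 with DESeq2, 5 with no filter, 4 with the compared groups alone and 3 without the LCA50 library of most receptor background in each genotype. KO LCA10 calls numbered 4 with no filter. Zbp1 was also gained in KO LCA10 with DESeq2 (adjusted p = 0.0249) and with the compared groups alone (edgeR adjusted p = 0.0073). It was gained there too without the high-background LCA50 libraries (edgeR adjusted p = 0.00691). KO LCA50 calls numbered 2 with DESeq2, 2 with no filter and 2 with the replicate block. The mean LCA50 response had 2 without the high-background LCA50 libraries. The block changed no other member count. Over all genes, same-numbered deviations correlated at −0.218 to 0.0881, and 6 of 18 libraries correlated best with their own number. These values show no pairing of the samples by replicate number over all genes. Yet the median of the interferon-stimulated genes was highest in the second replicate of every group. The correlations over all genes do not test those genes alone.

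Leaving out 1 library gave 0 to 3 member calls in WT LCA10, 0 to 3 in KO LCA10, 0 to 1 in WT LCA50, 0 to 2 in KO LCA50, 3 to 5 in the mean LCA10 response and 0 to 2 in KO against WT averaged over doses. With 3 libraries a group, single-guide calls rest on few values.

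Counts over all genes moved more. DESeq2 called 76 in WT LCA10, 65 in KO LCA10, 124 in KO against WT at 10 µM and 1 for the difference at 50 µM. With no filter these were 104, 103, 142 and 3, with 141 for KO against WT without LCA, 357 at 50 µM and 3 for the difference at 10 µM. The compared groups alone gave 136 in WT LCA10, 123 in KO LCA10, 372 in KO LCA50, 211, 128 and 52 in KO against WT at 0, 10 and 50 µM, 1 for the difference at 10 µM and 380 for the mean LCA10 response. Without the high-background LCA50 libraries the counts were 113 in WT LCA10, 98 in KO LCA10, 428 in KO LCA50, 152 and 158 in KO against WT at 0 and 10 µM, and 350 for the mean LCA10 response. With 1 library left out they were 4 to 111 in WT LCA10, 6 to 96 in KO LCA10, 522 to 1304 in WT LCA50, 384 to 814 in KO LCA50, 28 to 156, 43 to 157 and 106 to 370 in KO against WT at 0, 10 and 50 µM, 56 to 111 for the middle dose against both ends, 106 to 352 for the mean LCA10 response and 0 to 6 for the difference at 50 µM. The cause was not tested.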

Other observations

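Ifnb1, Ifna1, Ifna2 and Ifna4, which encode type I interferons, did not pass the filter on low counts. Their highest count in any library was 5, 1, 2 and 4. Ifng, the type II interferon gene of activated T cells, was higher at 50 µM LCA than in control by 2.56 ± 0.49 on the log2 scale averaged over the guides (edgeR adjusted p = 0.00205), and at 10 µM its value was 1.90 ± 0.51 (adjusted p = 0.0874). Socs1, a feedback inhibitor of interferon receptors, was higher at 50 µM by 0.44 ± 0.08 (adjusted p = 0.000527), and the receptor chain Ifngr2 by 0.32 ± 0.08 (adjusted p = 0.00325). Ifngr1, the ligand-binding chain, was lower at 50 µM by −0.74 ± 0.07 (adjusted p = 9.54e-09). Ifnar2, a chain of the type I interferon receptor, was lower in KO than in WT averaged over doses by −0.31 ± 0.05 (adjusted p = 1.12e-05), and its change with LCA was not called at either dose.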
